A study of Homo sapiens with 2 samples.

Results

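Aminoacyl-tRNA synthetases are the enzymes that load each amino acid onto its transfer RNA. The members described here are 37 genes listed by name as such enzymes or their scaffold proteins. The rule that picks them uses no signal. They are the cytosolic enzymes with the scaffold proteins AIMP1 and AIMP2 (19 genes), the mitochondrial enzymes (16 genes) and GARS1 and KARS1 (2 genes), which serve both compartments. Of the 37, 33 had a probe set annotated to that gene alone, among 19775 such genes on the array. They were 16 cytosolic, 15 mitochondrial and both dual genes, with 70 probe sets in all. MARS1, QARS1, AIMP2 and TARS2 had no single-gene probe set, so their signals were not analysed here.

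The RNA came from 2 stable transfectants of the human tumour line SK-N-MC, called neuroepithelioma by the submitters and today counted among Ewing tumours, and was hybridised to Affymetrix U133 Plus 2.0 arrays. The vector control, clone 1, carried the empty pCMV-Script vector. The melanotransferrin clone, clone 4, carried a cDNA of human melanotransferrin in that vector, whose name refers to a cytomegalovirus promoter. Melanotransferrin is a membrane-bound relative of the iron carrier transferrin. Each line was measured on 1 array, so the groups could not be tested against each other, and a difference between the lines cannot be told apart from a difference between any 2 clones or any 2 arrays.

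MELTF, the melanotransferrin gene, was at least 21.4-fold higher in the clone on its brightest probe set, which read 18.4 in the vector control and 4449.4 in the clone. Its other 3 probe sets did not show this. A floor of 208 was used below which a signal was not taken as measured. Background probe sets for receptors and hair proteins read a median of 67.4 in the vector control and 44.0 in the clone. Median ratios of clone to control were 0.706 over 18 hybridisation spike-in probe sets and 1.53 over 24 poly-A spike-in probe sets. The signal near the 3′ end of ACTB over that near its 5′ end, a sign of RNA quality, was 1.21 in the vector control and 1.44 in the clone. All 6 Ewing tumour markers with a probe set were above the floor, CD99 at 31465 and 32239 and NKX2-2 at 11550 and 12438 (control, clone). All 4 sympathetic neuroblast markers with a probe set (PHOX2A, TH, DBH and HAND2) and the hepatocyte markers ALB, APOA1 and TTR were below it on both. The hepatocyte marker SERPINA1 read 227.8 and 27.7 on 1 of its probe sets and was below the floor on the others. The epithelial markers CDH1, EPCAM and KRT19 were also below it on both, although KRT18 was bright. All 5 fibroblast markers were measured, with summed signals of 34666 and 32352, and the leukocyte markers summed to 16850 and 14833 through PTPRC. The part of these differences in the results below was not tested.

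Synthetases work in the cytosol, where they feed the ribosomes that translate nuclear messages, and in the mitochondrion, where a separate set serves the small group of proteins encoded by mitochondrial DNA. The mitochondrial enzymes are nuclear gene products that are imported. When amino acids run short, uncharged transfer RNA activates the kinase GCN2 (EIF2AK4), and the transcription factor ATF4 then raises the genes of amino acid synthesis and transport and many cytosolic synthetases. Several cytosolic enzymes sit in a multisynthetase complex held together by the AIMP scaffolds.

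All 33 members were above the floor on both arrays on their brightest probe set, and the lowest such signal was 586, for MARS2 in the clone. No member was 1.5-fold lower or higher in the clone on its brightest probe set with the signals as deposited. Among 12663 measured genes, 8.43% were at least 1.5-fold lower and 5.38% at least 1.5-fold higher. Among genes with a mean signal of 1000 or more, as most members have, these shares were only 1.94% and 3.89%. The direction of a signal depended on the scaling of the arrays. The log2 ratio of clone to control had a median of -0.022 over all measured genes as deposited, 0.48 when centred on the hybridisation spike-ins and -0.63 when centred on the poly-A spike-ins. With that last centring 13 of 16 cytosolic and 7 of 15 mitochondrial members counted as 1.5-fold lower. The median gene is itself more than 1.5-fold lower there, so most measured genes counted as lower too. Members at least 1.5-fold higher were counted only with the signals as deposited, so that count may change with the centring as well. For that reason members are also counted below on either side of the median of all measured genes. Folds, signs of log2 ratios and the words lower and higher refer to the signals as deposited and depend on that scaling.

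**Figure D1:**
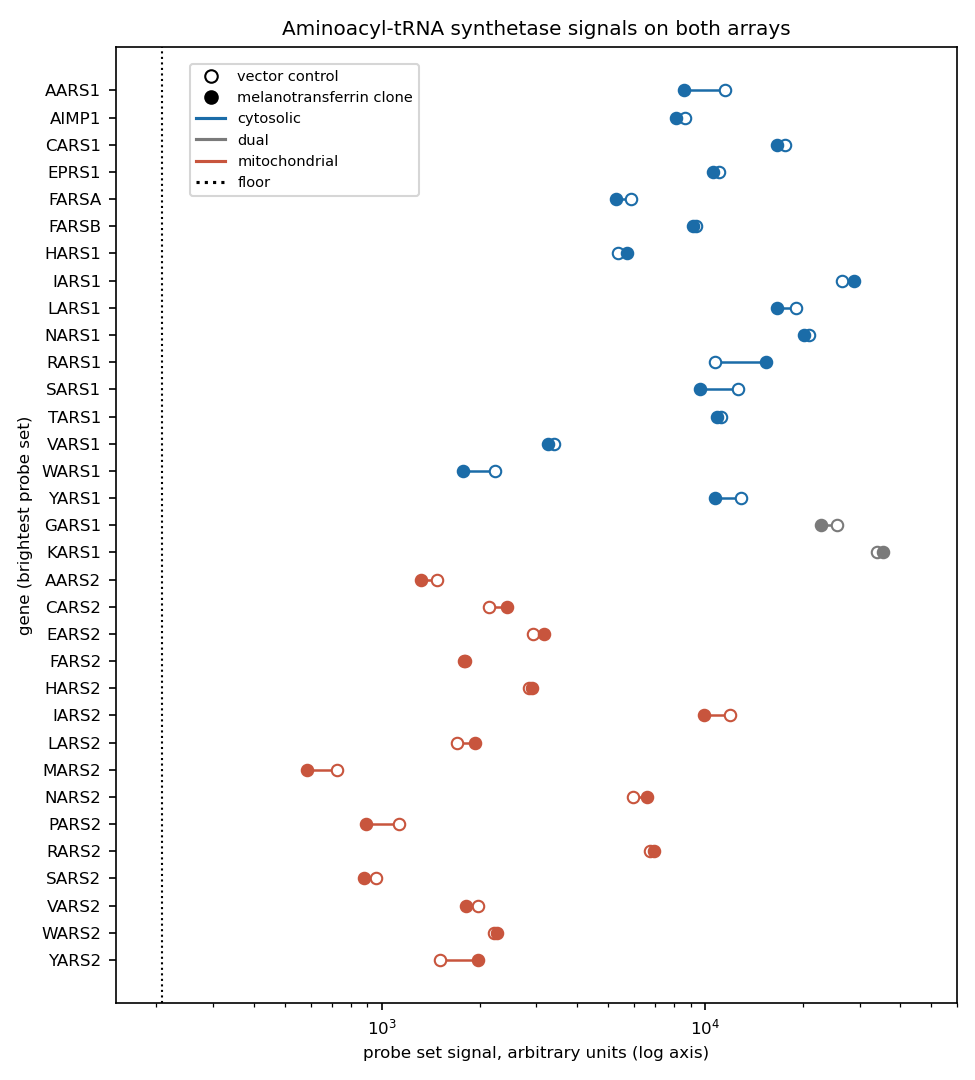
Signal of the brightest probe set of each measured synthetase gene (rows) on a log axis, with open circles for the vector control, filled circles for the melanotransferrin clone and a dotted line at the floor of 208. Lines join the 2 arrays, and the widest gaps are those of RARS1, AARS1, YARS2 and SARS1.

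The cytosolic enzymes lay slightly below the middle of the transcriptome. Of 16 measured cytosolic members, 13 had a log2 ratio below the median of all measured genes, where 50% of all genes lie by definition and where 42.8% of genes with a mean signal of 1000 or more lay. The count was 9 of 16 with the median over each gene's probe sets. It was 8 of 16 when no floor was set, since the median of all genes then fell to -0.077. Their median log2 ratio was -0.072, which is -0.050 relative to all genes, and it ran from -0.41 to 0.52. The only repeat readings were different probe sets of 1 gene. For single genes their log2 ratios had a pooled SD of 0.35 over 5387 genes, and 0.21 where every probe set was at 2000 or more. The probe set SD covers only readings of the same RNA on the same arrays and leaves out variation between cultures and clones.

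Among the cytosolic members, 4 enzymes were at least 1.2-fold lower in the clone, a size chosen after the values were seen. AARS1, the alanine enzyme, read 11459 in the vector control and 8603.1 in the clone, 1.33-fold lower, on its only probe set. SARS1, the serine enzyme, read 12574 and 9637.5, a log2 ratio of -0.38, and its second probe set read 981.9 and 686.4. WARS1, the tryptophan enzyme, which is also known as an interferon-induced gene, read 2237 and 1777.4, 1.26-fold lower, and 2224 and 1616.2 on its second probe set. YARS1, the tyrosine enzyme, read 12876 and 10684, 1.21-fold lower, and 862 and 790.5 on the other. Each was thus lower on every probe set it has. None lay outside the central range of all genes, whose 10th and 90th percentiles were -0.54 and 0.43. For genes with a mean signal of 1000 or more these percentiles were -0.32 and 0.39, and AARS1, SARS1 and WARS1 lay below that range. The 4 are 25% of the cytosolic members, beside 23.9% of all measured genes and 13.7% of genes with a mean signal of 1000 or more at this size. These counts use the signals as deposited. Relative to all genes YARS1 stood at -0.25, short of the 0.26 that 1.2-fold equals on the log2 scale.

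RARS1, the arginine enzyme, went the other way and had the widest difference of the list. It read 10695 in the vector control and 15348 in the clone on its only probe set, 1.44-fold higher and a log2 ratio of 0.52. It was the only measured member outside the central range of all genes, at percentile 93.2. AARS1, SARS1, WARS1, PARS2 and YARS2 also lay outside the narrower range of genes with a mean signal of 1000 or more. RARS1 alone of the cytosolic members was 1.2-fold higher, a size that 19.2% of all measured genes reached. No second probe set was there to set beside it.

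The other cytosolic enzymes differed little on their brightest probe set. LARS1, the leucine enzyme that also serves as a leucine sensor of the mTORC1 pathway, read 19022 and 16676, a log2 ratio of -0.19. FARSA and FARSB, the subunits of the phenylalanine enzyme, had log2 ratios of -0.16 and -0.034. CARS1 (cysteine), VARS1 (valine), EPRS1 (glutamate and proline in 1 chain), NARS1 (asparagine) and TARS1 (threonine) lay between -0.078 and -0.045. HARS1, the histidine enzyme, read 5365.3 and 5703.8, a log2 ratio of 0.088. None of these differences exceeds the probe set SD.

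IARS1, the isoleucine enzyme, read 26447 in the vector control and 28722 in the clone, a log2 ratio of 0.12. IARS1 lies on chromosome 9, where the other 503 measured genes had a median log2 ratio of 0.44. Relative to them IARS1 stood at -0.32, so its direction turned with the reference. CARS2 lies on chromosome 13, whose other 241 measured genes had a median of 0.10. On the other 13 chromosomes that carry members, the medians of the remaining genes ran from -0.057 to 0.020.

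Members of the multisynthetase complex showed no common direction. Of the 9 listed, 6 were measured, with 3 below the all-gene median, 3 above it and a median log2 ratio of -0.00060. AIMP1, the scaffold protein that is also released as a cytokine, read 8655.3 and 8109.8 on its brightest probe set, 3340.9 and 3549.2 on the next and 903.9 and 923.1 on the dimmest. KARS1, the lysine enzyme of the complex and of the mitochondrion, read 33829 and 35348, and its second probe set had a log2 ratio of 0.019. GARS1, the glycine enzyme for both compartments, which is known for mutations in inherited neuropathy, read 25560 and 22710, a log2 ratio of -0.17.

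Mitochondrial enzymes were spread on both sides of the median of all genes. Of 15 measured, 6 lay below it and 9 above, with a median log2 ratio of 0.033, or 0.055 relative to all genes. PARS2, the proline enzyme, read 1127.7 in the vector control and 891.1 in the clone, 1.27-fold lower. MARS2, the methionine enzyme and the dimmest member, read 724.7 and 586, 1.24-fold lower. IARS2 (isoleucine) read 11870 and 9886.9, a log2 ratio of -0.26 that just passes 1.2-fold as deposited but not relative to all genes (-0.24). These 3 genes are 20% of the class, beside the same 23.9% of all measured genes and 13.7% of genes with a mean signal of 1000 or more. MARS2 is dimmer than that, and each of the 3 has 1 probe set.

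YARS2, the mitochondrial tyrosine enzyme, was the highest of the class, at 1511 in the vector control and 1979 in the clone, 1.31-fold higher on its only probe set. CARS2, LARS2, NARS2 and EARS2 followed with log2 ratios of 0.19, 0.18, 0.14 and 0.11. For LARS2, the leucine enzyme, the second probe set was higher too, at 991.8 and 1277.4. On the brightest probe set, RARS2, WARS2, HARS2 and FARS2 lay between 0.011 and 0.042, and SARS2, VARS2 and AARS2 between -0.17 and -0.12. The difference between the class medians, cytosolic minus mitochondrial, was -0.10 on the log2 scale, and it ran from -0.14 to -0.014 over the alternatives, with the last value from the median over each gene's probe sets.

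**Figure D2:**
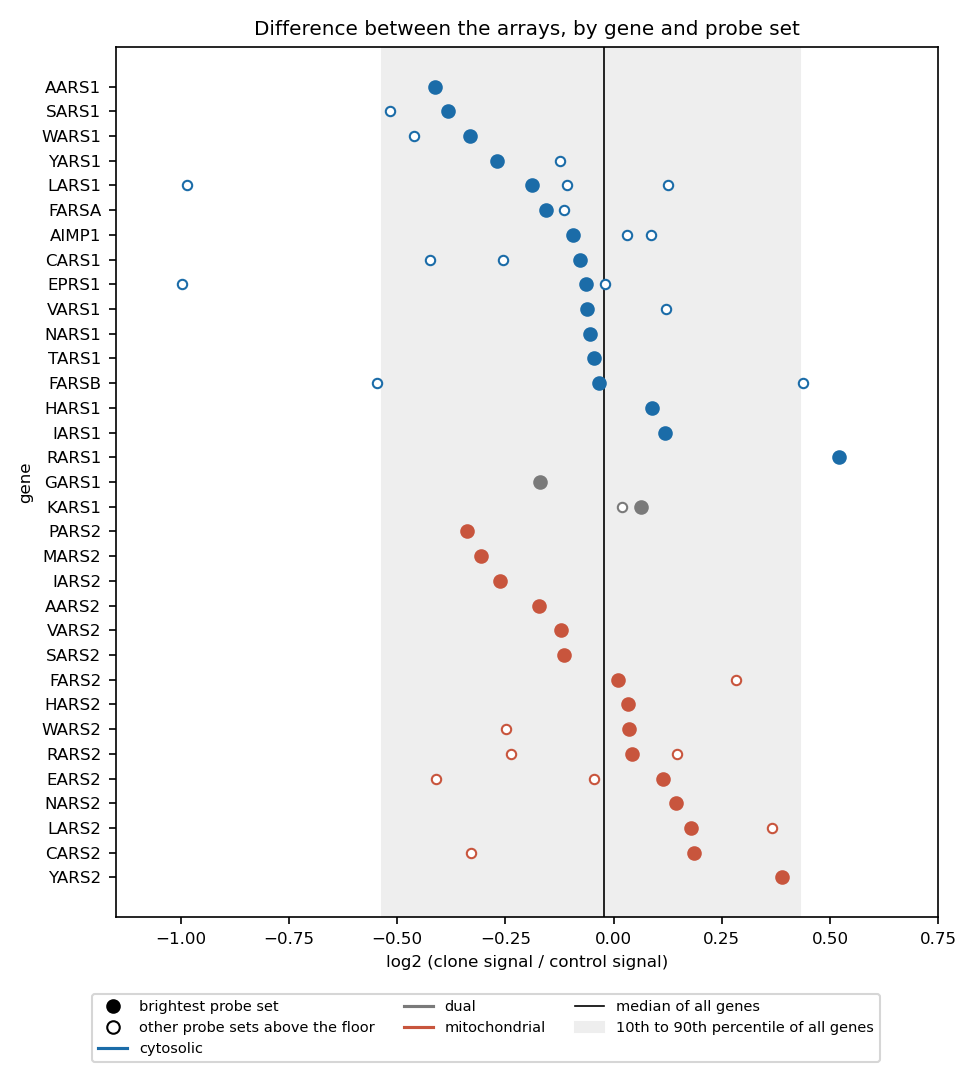
Log2 ratio of clone to control signal for each measured member (rows, sorted within class), with filled circles for the brightest probe set and open circles for other probe sets with both signals above the floor. The grey band runs from the 10th to the 90th percentile of all measured genes (-0.54 to 0.43), the line marks their median, and only RARS1 has its brightest probe set outside the band.

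Probe sets of the same gene often disagreed. Of 17 members with several probe sets whose signals were both above the floor, 8 had readings of both signs, beside 54.8% of such genes on the array. All probe sets were lower as deposited for 6 members (CARS1, EPRS1, FARSA, SARS1, WARS1 and YARS1), all among the 10 cytosolic ones of the 17. For EPRS1, 1 of these readings, at -0.020, lay just above the median of all genes, -0.022. All probe sets were higher for 3 members, KARS1, FARS2 and LARS2. The shares of all such genes with every probe set lower, or every one higher, were not counted, so these counts have no background beside them. Over single such probe sets, 23 of 32 cytosolic and 11 of 23 mitochondrial ones lay below the median of all genes, beside 48.7% of all named probe sets.

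Just 2 of these member probe sets were 1.5-fold lower, and 7.53% of all such probe sets were. EPRS1 read 4634.2 in the vector control and 2321.7 in the clone on its dimmest probe set, a log2 ratio of -0.997. Its brighter probe sets read 10997 and 10516, and 8700.6 and 8577.9. LARS1 read 1831 and 925 on its dimmest probe set, a log2 ratio of -0.99, while the other 3 ranged from -0.19 to 0.12. FARSB split in both directions, with 466.4 and 631.9 on 1 dim probe set and 520.1 and 356.1 on the other. Where these probe sets lie along the transcripts was not tested, since probe sequences were not used.

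A further 4 probe sets had only a bound because 1 array was below the floor. EARS2 read 186.5 and 393.4 on such a probe set, CARS2 326.6 and 198.1, TARS1 115 and 309.9 and AARS2 157.1 and 220.3. The brightest probe sets of these genes had log2 ratios of 0.11, 0.19, -0.045 and -0.17 in the same order, so the dim probe sets of CARS2, TARS1 and AARS2 went the other way. That of EARS2 went with its brightest probe set, unlike its readings of -0.045 and -0.41 on other probe sets.

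Cytosolic and mitochondrial enzymes for the same amino acid were set side by side in 15 pairs. FARS2 was set against both FARSA and FARSB, and EPRS1 against both EARS2 and PARS2, so the pairs are not independent. The cytosolic gene had the lower log2 ratio in 10 pairs and the higher in 5, with a median difference of -0.18. The tyrosine enzymes differed most, with YARS1 at -0.27 and YARS2 at 0.39, a difference of -0.66. That was the only pair further apart than 0.49, the pooled probe set SD over all genes scaled to a difference of 2 readings. The SD of 0.21 for probe sets at 2000 or more would give a shorter distance, so this count depends on the SD chosen. Several mitochondrial partners were dimmer than 2000. The leucine and tryptophan pairs differed by -0.37 each. The arginine and isoleucine pairs went the other way, by 0.48 and 0.38. With each gene set against its own chromosome, the isoleucine pair turned to -0.11 and the counts were 11 and 4.

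**Figure D3:**
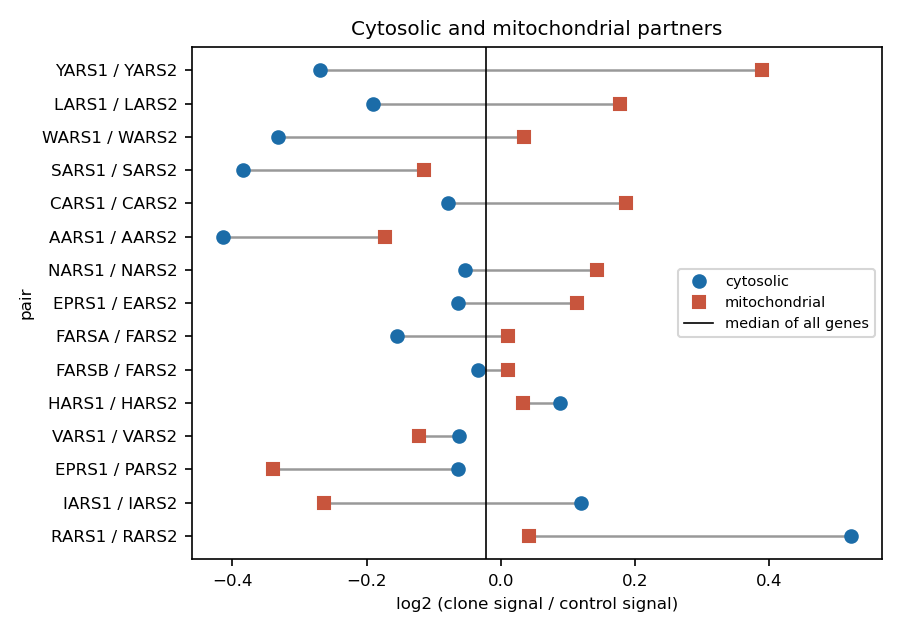
Log2 ratio of clone to control signal for cytosolic (circles) and mitochondrial (squares) enzymes of the same amino acid, 1 pair a row, with a line at the median of all measured genes. The circle lies left of the square in 10 of 15 pairs, and the widest gap is that of YARS1 and YARS2.

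Synthetases form 2 structural classes with unrelated catalytic folds. EPRS1, with a glutamate part of class I and a proline part of class II, was counted in class I only. The 17 measured enzymes of class I had a median log2 ratio of -0.062 and the 15 of class II -0.054. Within the cytosolic members these medians were -0.072 (8 genes) and -0.054 (7 genes), and within the mitochondrial members 0.042 (9 genes) and -0.052 (6 genes).

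Among the enzymes that serve the cytosol, those known as targets of the amino acid response were compared with the rest. Of 12 measured enzymes on that list, 11 lay below the all-gene median, and their median log2 ratio was -0.12. The exception was IARS1. The count was 7 of 12 when no floor was set and 9 of 12 with the median over each gene's probe sets. Of the 5 other enzymes (FARSA, FARSB, HARS1, RARS1 and KARS1), 2 lay below the all-gene median and their own median was 0.063. All of the cytosolic members at least 1.2-fold lower, AARS1, SARS1, WARS1 and YARS1, are on the list of targets. The lists were chosen with results of these arrays known, the groups are small and they overlap, from -0.41 to 0.12 and from -0.16 to 0.52.

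ATF4 acts on many of its target genes through a composite element with binding sites for C/EBP and ATF factors. The letters TGATGNAA were searched on both strands of RefSeq promoter windows (assembly GRCh38.p14) that run from 250 bases before to 50 after a gene's start. A window was there for 32 of the 37 members. The letters were found in 6 of 16 cytosolic members with a window, AARS1, CARS1, IARS1, MARS1, NARS1 and TARS1, which is 37.5%. They were also found in GARS1 and in 1 of 14 mitochondrial members, YARS2, beside 4.46% of all 27305 genes in the table and 3.62% of its 35116 windows. In all 6 cytosolic members the match had the form TGATGCAA or its reverse complement, a form held by 1.08% of all genes and by neither GARS1 nor YARS2. The stretches around the matches of measured members are shown because the same letters recur in them, with the match in capitals, 5′ to 3′ on the strand of the gene. No stretch runs past the start site except to the end of a match that lies beyond it.
AARS1, chr16:70289656-70289753, minus strand: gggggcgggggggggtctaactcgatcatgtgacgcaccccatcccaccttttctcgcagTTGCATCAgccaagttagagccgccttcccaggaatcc
CARS1, chr11:3057418-3057485, minus strand: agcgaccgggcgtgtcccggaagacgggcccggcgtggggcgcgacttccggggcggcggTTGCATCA
IARS1, chr9:92293698-92293770, minus strand: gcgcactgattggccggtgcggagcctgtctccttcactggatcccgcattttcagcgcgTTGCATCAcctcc
NARS1, chr18:57621815-57621882, minus strand: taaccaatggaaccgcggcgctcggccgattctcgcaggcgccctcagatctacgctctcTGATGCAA
TARS1, chr5:33440907-33440974, plus strand: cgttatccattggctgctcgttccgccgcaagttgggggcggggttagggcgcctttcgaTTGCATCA
GARS1, chr7:30594785-30594877, plus strand: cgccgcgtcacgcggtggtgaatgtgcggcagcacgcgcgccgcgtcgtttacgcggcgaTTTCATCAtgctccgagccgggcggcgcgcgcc
YARS2, chr12:32756057-32756147, minus strand: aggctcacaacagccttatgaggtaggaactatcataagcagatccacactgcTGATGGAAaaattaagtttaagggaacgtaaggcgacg

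In CARS1, IARS1, NARS1 and TARS1 the match began within 15 bases of the start site, at positions -2, -13, 15 and 3. In AARS1 it began at -187. CARS1 and TARS1 each had another window in the table without a match, as did GARS1. The signals did not separate by the match. The 5 measured cytosolic members with it had log2 ratios of -0.41 (AARS1), -0.078 (CARS1), -0.054 (NARS1), -0.045 (TARS1) and 0.12 (IARS1), with a median of -0.054. The 8 measured cytosolic members with a window but no match had a median of -0.079, and SARS1 and WARS1, both 1.2-fold lower or more, were among them. YARS1, LARS1 and VARS1 had no window in the table. A match is a description of the letters in the window and does not show that a factor binds there.

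Genes that act with the synthetases were mixed. On the list of other charging and export genes, 14 of 16 were measured, 6 of them below the median of all genes, with a median log2 ratio of 0.016. EEF1E1, which encodes a further protein of the complex, had no single-gene probe set. The mitochondrion makes its glutaminyl-tRNA with an amidotransferase whose subunits are QRSL1, GATB and GATC. QRSL1 had a log2 ratio of 0.043, GATB read 826.6 and 450.3, 1.84-fold lower, and GATC read 2733.4 and 4333, a log2 ratio of 0.66. A second GATC probe set had a log2 ratio of -0.21, so GATC has no settled direction. SEPSECS, which makes selenocysteinyl-tRNA, read 434.6 and 225.8, 1.92-fold lower, with the clone signal just above the floor, but its next probe set read 182.2 and 252.4, so SEPSECS has no settled direction either. XPOT, the exporter of transfer RNA from the nucleus, read 19846 and 15403, 1.29-fold lower, and 0.023 on the log2 scale on its second probe set.

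Translation factors gave class medians close to those of the synthetases. The 16 measured cytosolic factors had a median log2 ratio of -0.078, with 12 below the median of all genes and 0 at least 1.5-fold apart. The 8 measured mitochondrial factors had a median of 0.061, with 1 below the median of all genes. MRRF, the mitochondrial ribosome recycling factor, read 1900.1 and 3233.5, a log2 ratio of 0.77, and lies on chromosome 9. MTIF3 and MTRF1, at 0.14 and 0.28, lie on chromosome 13. The part of these chromosomes in the median of the mitochondrial factors was not tested.

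The non-synthetase genes of the amino acid response were lower by more than the synthetases were. Of 13 measured regulators, 3 were at least 1.5-fold lower and 0 higher, which is 23.1% beside 8.43% of all genes, and the median log2 ratio was -0.42. NUPR1, a stress-induced nuclear protein, read 518.2 and 223.2, 2.32-fold lower, on its only probe set and with the clone signal just above the floor. DDIT3, a transcription factor induced downstream of ATF4, read 2711.9 and 1228.5, 2.21-fold lower, and ATF3 was 1.95-fold lower. The second ATF3 probe set read 401.3 and 388.9, which does not show that difference. ATF4 itself read 28338 and 23244, 1.22-fold lower, and EIF2AK4, the kinase that senses uncharged transfer RNA, had a log2 ratio of -0.016.

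Of 22 measured genes of amino acid synthesis, transport and related targets, 7 were at least 1.5-fold lower and 0 at least 1.5-fold higher. The median log2 ratio was -0.32. The lower ones are 31.8% of the list, beside 8.43% of all measured genes, and 5.38% of all were at least 1.5-fold higher. The 7 were SESN2 (1.92-fold), CHAC1 (1.64-fold), ASNS (1.60-fold), PSPH (1.59-fold), PYCR1 (1.56-fold), GOT1 (1.54-fold) and SLC7A5 (1.53-fold). ASNS, asparagine synthetase, read 15792 and 9898.9, whereas NARS1, the enzyme that charges asparagine, read 20948 and 20181. PSPH, the last enzyme of serine synthesis, read 6674.4 and 4187.6, and SARS1, which charges serine, had a log2 ratio of -0.38. Of the targets, DDIT4 was the highest, with a log2 ratio of 0.54. These lists share both arrays with the synthetases and were known to be lower when they were chosen, so they are no independent evidence.

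**Figure D4:**
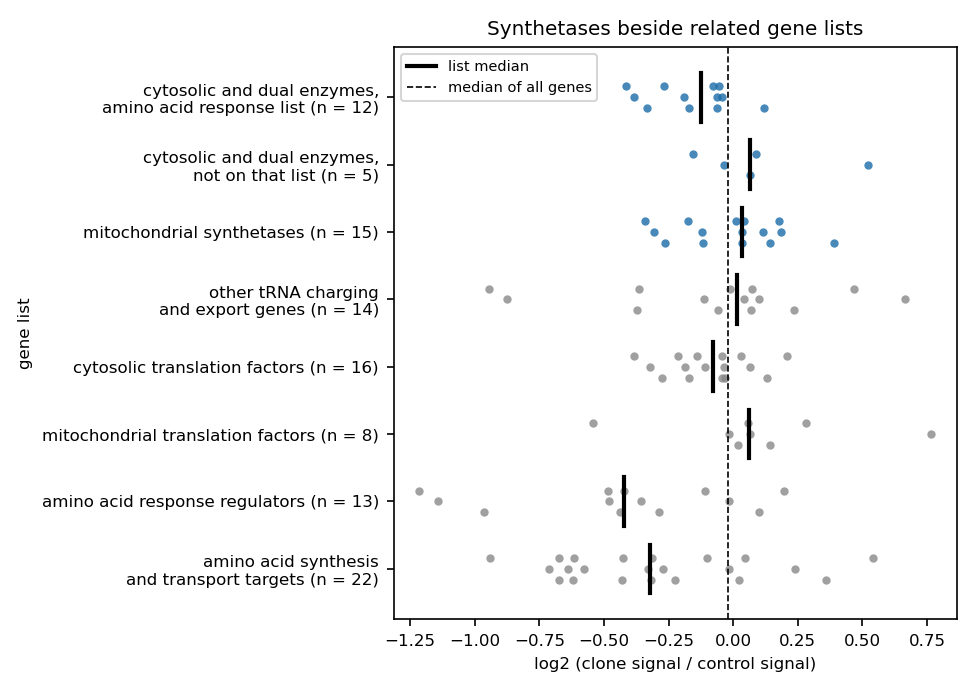
Log2 ratio of clone to control signal of each measured gene (points, brightest probe set) in 3 groups of synthetases (blue) and 5 lists of related genes (grey), with a bar at the median of each list and a dashed line at the median of all measured genes. List medians run from -0.42 for the amino acid response regulators to 0.063 for the enzymes that are not on the amino acid response list.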

How the data were processed

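Signals of 54675 probe sets on 2 arrays, 1 per group, were used as the authors deposited them. They are linear intensity values with 1 decimal, produced by GCOS (version 1.3) per the submitters' processing notes. How probes were summarised and to what target they were scaled is not stated there. The mean after dropping the lowest and highest 2% of signals was 1000.12 on both arrays, so a change shared by most transcripts cannot be seen in the deposited intensity values.

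Gene names came from GEO's annotation of the platform, in which 41097 had 1 symbol, 1801 several and 11777 none here. Symbols were updated by gene ID through RefSeq (GRCh38.p14), which matched 41043. The probe set of highest mean signal stood for a gene. The floor of 208 was the 90th percentile of 191 probe sets for olfactory receptors, taste receptors and keratin-associated proteins. Signals below it were set to it, and a gene below it on both arrays was not measured. The log2 ratio is clone over control. With 1 array per group no test was possible, and precision is limited by the number of arrays.

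The members and lists were chosen with earlier results of these data known. Every member was named by rule, and pathway genes where at least 1.5-fold apart, plus EEF1E1, ATF4, DDIT3 and ASNS, and some items are not reported here. Other pathway genes (EIF2AK4, DDIT4, QRSL1, XPOT) were named after their values were seen, and the structural class lists were added then too. Alternatives were other centrings, a loess on signal, other floors, other probe set rules and the chromosome as reference. The ratio was tested on simulated data with known changes. Python 3.11.15, numpy 2.4.6, pandas 2.3.3, statsmodels 0.14.6 and matplotlib 3.10.9 were used.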

Additional observations from a re-analysis of the deposited data

How the results depend on the processing

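Under the 10 alternatives run, the relative median ran from -0.089 to 0.0054 for the cytosolic members and from 0.0014 to 0.11 for the mitochondrial members. Their difference, -0.10 as deposited, ran from -0.14 to -0.014, the last with the median over each gene's probe sets. The centrings cannot move any of these values, and the floors cannot move the difference here. The cytosolic median turned direction, at 0.0054 without a floor, where 8 cytosolic members in place of 13 lay below the median of all genes. That count was 9 with the median over each gene's probe sets. The counts of members at least 1.5-fold lower, 0 and 0 as deposited, became 13 cytosolic and 7 mitochondrial with the poly-A centring. That centring puts the median of all measured genes at -0.63, past the 1.5-fold cut, so most genes counted as lower too. At 1.2-fold, added after the data were seen, the counts of members as deposited were 4 and 3, and at 2-fold 0 and 0. Of the values of single members under the alternatives other than centring, 3 moved by more than the pooled probe set SD of 0.35 and 223 by less. Changes of the floor shift members by a constant. The 3 were CARS2 at -0.28 as the median of its probe sets, FARSB at -0.54 on probe sets without shared sequences and IARS1 at -0.32 relative to chromosome 9, and the cause was not tested. EPRS1, GARS1, LARS1, IARS1 and VARS1 have only probe sets of shared sequence and gave no value without them. No paired analysis was possible because each group has 1 array and the clone numbers differ. No replicate could be left out.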
